A study of Mus musculus with 24 samples.

Results

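Cultured primary mouse hepatocytes that received granulocyte colony-stimulating factor (G-CSF, 1 µg/ml) together with acetaminophen (20 mM) were compared with cultured hepatocytes given 20 mM acetaminophen alone, in small RNA sequencing. The members are the hairpin entries, that is the miRNA precursors to which reads were assigned, with 100 or more counts in at least 1 of these hepatocyte columns: 108 of the 1186 hairpins in the table. They held 97.3% of the counts in the acetaminophen plus G-CSF column and 97.2% in the acetaminophen column. The series has 24 samples from 4 materials with 3 treatments each, and each condition was sequenced on an Ion Torrent PGM and on an Ion Torrent Proton. The deposited tables hold 1 combined column per condition, so that 4 samples enter the comparison as 2 columns with no replicate. Every difference below therefore compares those libraries and not conditions, and carries no p-value. Of the mice, neither age nor strain was given in the sources used here, nor was the number of cultures behind a column or the time of exposure. The untreated hepatocyte column (no acetaminophen, no G-CSF) and the livers of mice given 500 mg/kg acetaminophen with or without 100 µg/kg G-CSF are used only where stated.

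A miRNA is cut from its hairpin as a short strand that guides repression of messenger RNAs, chiefly through bases 2 to 8, the seed, and miRNAs with a common seed are grouped as a family. Acetaminophen in excess is converted in hepatocytes to a reactive product that damages mitochondria and kills the cell. G-CSF is a cytokine known for the production and release of neutrophils, and it is studied as a treatment in liver failure.

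The mature strands on which the comparison turns are printed below 5′ to 3′ in RNA letters, with the seed in capitals, from RefSeq (GRCm38.p6). The first group shows miR-30c beside family members of the same seed, then the miR-29 family, miR-101a and miR-125a, whose shares were larger with G-CSF added. The second group shows strands whose hairpins took smaller shares, beside miR-15a, miR-15b and miR-425, which have the seed of a strand in that group but did not share its direction.
miR-30c-5p: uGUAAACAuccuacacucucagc
miR-30a-5p: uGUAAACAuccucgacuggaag
miR-30e-5p: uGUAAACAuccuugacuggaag
miR-29a-3p: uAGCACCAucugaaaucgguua
miR-29b-3p: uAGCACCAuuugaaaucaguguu
miR-29c-3p: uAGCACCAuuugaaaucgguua
miR-101a-3p: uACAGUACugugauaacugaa
miR-125a-5p: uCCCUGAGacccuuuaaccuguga
miR-194-5p: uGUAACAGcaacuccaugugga
miR-192-5p: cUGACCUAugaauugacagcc
miR-215-5p: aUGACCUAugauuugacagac
miR-16-5p: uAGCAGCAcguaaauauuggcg
miR-195a-5p: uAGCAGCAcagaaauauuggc
miR-15a-5p: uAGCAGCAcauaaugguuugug
miR-15b-5p: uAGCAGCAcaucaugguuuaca
miR-148a-3p: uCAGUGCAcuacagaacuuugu
miR-148b-3p: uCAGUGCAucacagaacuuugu
miR-152-3p: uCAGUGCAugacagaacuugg
miR-489-3p: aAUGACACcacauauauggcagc
miR-425-5p: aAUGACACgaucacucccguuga
miR-362-3p: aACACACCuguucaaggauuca

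The hairpin columns summed to 139361 counts for acetaminophen plus G-CSF, 179751 for acetaminophen and 838624 for untreated hepatocytes. The mature columns summed to 4450, 5330 and 26741 in the same order, or 31.3, 33.7 and 31.4 hairpin counts per mature count. The hepatocyte label was set against markers: mir-122, the miRNA most typical of hepatocytes, had 4320 counts (3.10%) in the acetaminophen plus G-CSF column and 9279 (5.16%) in the acetaminophen column, and mir-192 and mir-215 were also among the leading hairpins. The endothelial mir-126a was present with 962 and 1764 counts in those columns (0.690% and 0.981%). The 4 erythroid hairpins together had 4.5 and 15 counts, the 5 leukocyte hairpins 63.5 and 162 counts (0.0456% and 0.0898%), and the 7 mesenchymal and stellate hairpins 101 and 308 counts (0.0728% and 0.171%), again with acetaminophen plus G-CSF first. Each of these non-hepatocyte lists summed to a smaller share with G-CSF added. In the leukocyte list that rested on mir-342, since the 4 others summed to 21.5 and 30.5 counts (0.0154% and 0.0170%) and mir-223 to 14 and 17. The part of these cell types in the results below was not tested. In columns of bulk RNA, fewer cells of a type and less RNA per cell cannot be told apart.

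With G-CSF added, 3 of the 108 hairpins were higher and 17 were lower, and 88 lay within 2-fold or had an interval that included equality. A hairpin is called higher or lower where its share of the column total differed at least 2-fold and the exact conditional 95% interval of the ratio, which covers counting error only, excluded equality. The calls amount to 2.78% higher and 15.7% lower of the members, or 18.5% in either direction. Among all 230 hairpins with 10 or more counts in either column, 15 (6.52%) were higher and 39 (17%) lower, 23.5% in either direction, so that the lower share among members is near the background and reads as nothing particular to them. The median log2 ratio was -0.24 over the members and -0.25 over the 230. The quartiles of the members were -0.74 and 0.34, and the whole range from -2.49 for mir-362 to 1.52 for mir-125a. The interval excluded equality for 33 hairpins with a positive and 54 with a negative log2 ratio, whatever the size, and included it for 21.

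**Figure D1:**
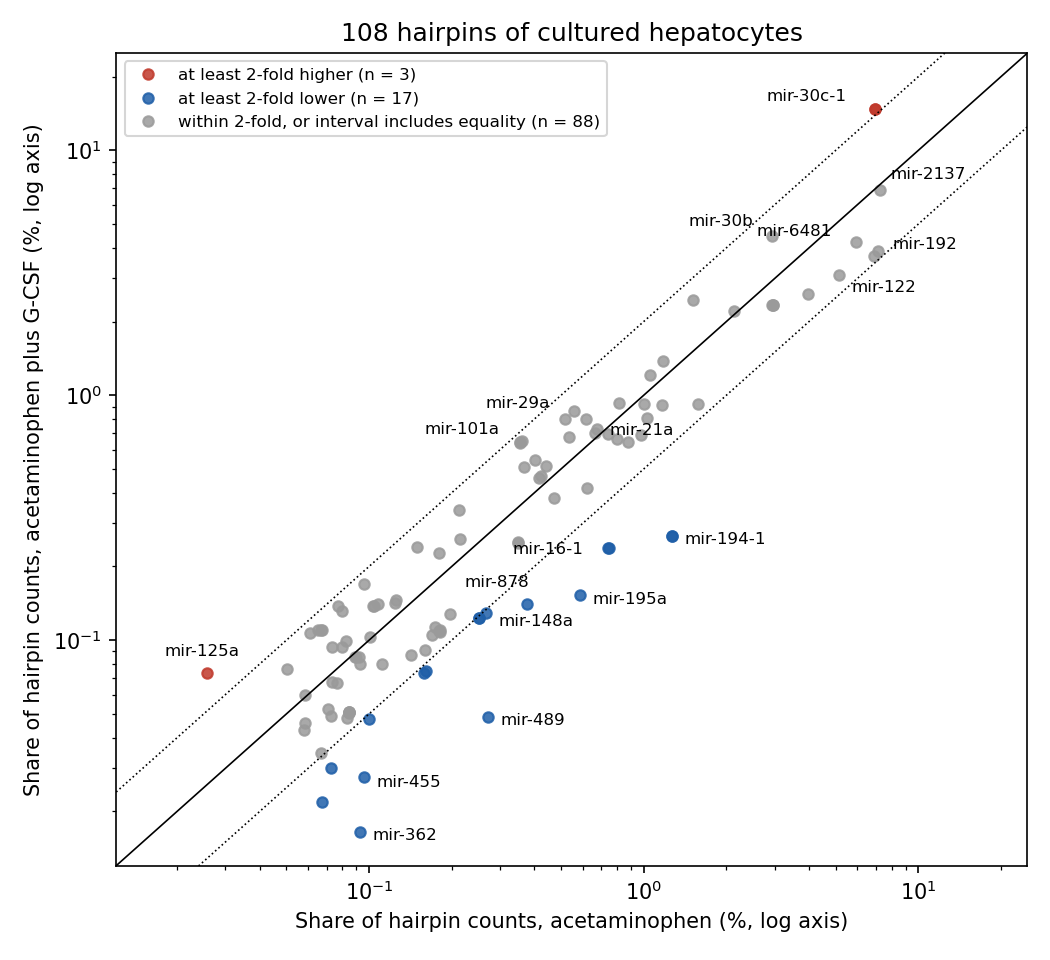
Share of hairpin counts in the acetaminophen plus G-CSF column (vertical, log axis, percent) against the acetaminophen column (horizontal, log axis, percent) for 108 hairpins, with the line of equality and dotted 2-fold limits. The mir-30c hairpins stand at the top right above the upper limit, and mir-362, mir-489, mir-194-1 and mir-194-2, the last 2 nearly on the same spot, lie farthest below the lower one.

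The most abundant miRNA of the acetaminophen plus G-CSF column was miR-30c, and its hairpins were 2 of the 3 called higher. It belongs to the miR-30 family, which is known for repression of connective tissue growth factor and of autophagy genes. Its hairpin mir-30c-1 had 20542 counts (14.7%) in the acetaminophen plus G-CSF column against 12529 (6.97%) in the acetaminophen column, a ratio of 2.11 (95% interval 2.07 to 2.16). mir-30c-2 had 20547 and 12533 counts, and since both give the same mature strand their reads cannot be told apart and they are 1 signal. Summed, miR-30c took 29.5% with acetaminophen plus G-CSF, 13.9% with acetaminophen and 1.91% in untreated cells. The mature strand miR-30c-5p had 1437 counts (32.3%) with G-CSF added against 845 (15.9%) with acetaminophen alone. mir-30c-1 lies at chr4:120769534-120769622 (GRCm38, minus strand) in an intron of Nfyc, a subunit of the CCAAT-binding factor NF-Y.

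The other miR-30 hairpins, mir-30a, mir-30b, mir-30d and mir-30e, also had positive log2 ratios but were not called. mir-30b had 6236 counts (4.47%) in the acetaminophen plus G-CSF column against 5268 (2.93%) in the acetaminophen column, a log2 ratio of 0.61. For mir-30a, mir-30d and mir-30e the log2 ratios were 0.24, 0.20 and 0.20. As printed above, miR-30a-5p and miR-30e-5p share the seed of miR-30c-5p and differ from it after the seed. The summed share of mir-30a, mir-30d and mir-30e was 1.16 times as large with G-CSF added (1.12 to 1.21), against 2.11 times (2.08 to 2.15) for summed miR-30c. Of the 6 members of the family, 2 were higher and 0 lower, with a median log2 ratio of 0.42, and the family took 37.5% with acetaminophen plus G-CSF against 19.9% with acetaminophen. Over all 230 hairpins measured, 6.52% were higher and 17% lower.

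mir-125a, one of the vertebrate homologues of lin-4, was the third higher hairpin, with 102.5 counts in the acetaminophen plus G-CSF column against 46 in the acetaminophen column, a ratio of 2.87 (2.0 to 4.14). Its mature products had 3 and 1 counts, too few for a check. It is also the member closest to the minimum of 100 counts. Next above that minimum came let-7f-1 (60.1 counts with acetaminophen plus G-CSF, 104 with acetaminophen; log2 ratio -0.42), then mir-335 (64 and 105; -0.35) and mir-345 (83 and 105; 0.03). Just below it were let-7f-2 (49.5 and 99.0; -0.63), mir-222 (22 and 97; -1.77) and mir-574 (71.0 and 94.1; -0.04).

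The miR-29 family, which represses collagen and other matrix genes, took a larger share with G-CSF added without a call in the hairpin table. mir-29a had 1120 counts in the acetaminophen plus G-CSF column against 931 in the acetaminophen column, with a log2 ratio of 0.63, and mir-29c had 1202 and 1003, also 0.63. mir-29b-1 had 336 and 270 counts (0.68), and mir-29b-2 had 131 and 132 (0.36), the only 1 of the family whose interval included equality. The summed family was 1.54 times as large (1.46 to 1.63). Of its 4 hairpins 0 were called, and their median was 0.63. They form 1 group of similar mature sequence, so that their counts are not separate evidence.

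miR-101 and miR-26, both known to repress the methyltransferase Ezh2, had log2 ratios of opposite sign. The summed mir-101a, mir-101b and mir-101c hairpins had 2697 counts with acetaminophen plus G-CSF against 1923 with acetaminophen, a ratio of 1.81 (1.71 to 1.92), and each of them had a log2 ratio of 0.85 to 0.86. The summed mir-26a-1, mir-26a-2 and mir-26b hairpins had 457 and 978 counts and were 1.66-fold lower in share (1.48 to 1.86), short of the 2-fold limit. Values within each of these families were nearly equal. mir-26a-1, mir-26a-2 and mir-26b have nearly the same mature sequence, as have mir-101a, mir-101b and mir-101c, so that their counts are not separate evidence.

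The largest decreases among the lower hairpins were those of mir-362 and mir-489. Both reached the minimum count for members in the acetaminophen column only, as did mir-342, mir-455, mir-671 and mir-5121 of the lower hairpins. Of the higher ones, mir-125a reached it in the acetaminophen plus G-CSF column only. The minimum was set on raw counts, and the acetaminophen column was deeper (179751 against 139361 counts). Such a minimum admits hairpins high in that column more readily, and a minimum required in both columns was not tested. mir-362, which lies in an intron of the chloride transporter gene Clcn5, had 23 counts with acetaminophen plus G-CSF against 167 with acetaminophen and was 5.63-fold lower (3.63 to 9.13). mir-489, in an intron of the calcitonin receptor gene Calcr, had 68 against 486.5 counts and was 5.55-fold lower (4.29 to 7.25). Its mature strand miR-489-3p had 19 against 56 counts and was 2.46-fold lower (1.44 to 4.39), and the hairpin ratio lay outside that interval. miR-425-5p has the seed of miR-489-3p, and mir-425 had 198 counts with acetaminophen plus G-CSF and 223.5 with acetaminophen, a log2 ratio of 0.19 (-0.09 to 0.47).

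The hepatocyte-enriched list summed to 12.2% of hairpin counts with acetaminophen plus G-CSF against 22.4% with acetaminophen. Of its 8 members, in 6 groups of similar mature sequence, 0 were higher and 3 lower, with a median log2 ratio of -0.88. Among all 230 hairpins measured 17% were lower. The 3 were mir-148a and the mir-194 hairpins, which give the same mature strand. The log2 ratio was negative for 6 members and positive for 2, mir-101b at 0.85 and mir-193a at 0.27 (-0.08 to 0.61). mir-802, on the list but below the minimum, had 45 counts with acetaminophen plus G-CSF against 63 with acetaminophen. Its ratio was 0.92 (0.61 to 1.37). mir-194-1 had 371 counts in the acetaminophen plus G-CSF column against 2272 in the acetaminophen column and was 4.75-fold lower (4.25 to 5.31). mir-194-2, which yields the same mature strand, had 372 and 2273 counts. The mature strand miR-194-5p was 5.77-fold lower (3.75 to 9.27), at 24 against 166 counts.

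The genomic neighbours of the mir-194 hairpins had log2 ratios closer to 0. mir-192, next to mir-194-2, had 5426 counts with acetaminophen plus G-CSF against 12777 with acetaminophen, a log2 ratio of -0.87 (-0.91 to -0.82). mir-215, next to mir-194-1, had 5173 and 12387 counts, a log2 ratio of -0.89 (-0.94 to -0.85). miR-192-5p and miR-215-5p differ in few bases, as printed above, so their counts are not separate evidence. mir-122 had a log2 ratio of -0.74 (-0.79 to -0.68). None of these 3 passed the 2-fold limit, and the untreated column had shares of 3.70% for mir-192, 3.58% for mir-215 and 5.0% for mir-122.

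The family of miR-15, miR-16 and miR-195, which is known to repress cyclins and Bcl2, divided within its seed group. mir-16-1 had 332 counts in the acetaminophen plus G-CSF column against 1338 in the acetaminophen column and was 3.12-fold lower (2.77 to 3.53). mir-195a had 212 against 1055 counts and was 3.85-fold lower (3.33 to 4.49). mir-15a had 192.5 and 187 counts (log2 ratio 0.41, interval 0.11 to 0.70) and mir-15b 192 and 185 counts (0.42, 0.12 to 0.72). Seed and direction thus did not go together: the 4 strands have the seed AGCAGCA, and the hairpins with the higher log2 ratios are those of miR-15a and miR-15b. mir-16-2, whose mature strand is that of mir-16-1, was lower as well, which gives 0 higher and 3 lower of 5 members. The background over all 230 hairpins measured was 6.52% higher and 17% lower. By similar mature sequence the members form 2 groups, mir-15a with mir-15b, and mir-16-1 and mir-16-2 with mir-195a.

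The family of miR-148 and miR-152, whose targets include the DNA methyltransferase Dnmt1 and, in liver, the LDL receptor, was lower in all 3 members, close to the limit. Over all 230 hairpins measured, 17% were lower. mir-148a had 179 counts with acetaminophen plus G-CSF against 478 with acetaminophen and was 2.07-fold lower (1.74 to 2.47), mir-148b and mir-152 were 2.04-fold lower, and the 3 strands have nearly the same sequence. In mature counts miR-148a-3p, miR-148b-3p and miR-152-3p each had 5.33 with acetaminophen plus G-CSF, against 24, 22 and 23 with acetaminophen. They were called lower at 3.76-, 3.44- and 3.60-fold, on few counts that are not separate evidence. mir-27a, of a family that represses lipid metabolism genes, had 103 against 285 counts and was 2.15-fold lower (1.71 to 2.71), and its near copy mir-27b was 2.14-fold lower. In mature counts miR-27a-3p and miR-27b-3p each had 4.5 against 15. They were not called, at 2.78-fold lower with an interval (0.997 to 13.0) that included equality.

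Among the remaining lower hairpins, mir-455 (38.7 counts with acetaminophen plus G-CSF against 172 with acetaminophen), in an intron of the collagen gene Col27a1, was 3.46-fold lower. mir-5121 (30.5 against 121) was 3.08-fold lower, mir-878 (196.5 against 679) 2.68-fold lower and mir-671 (66.5 against 179) 2.09-fold lower. mir-342, in an intron of Evl and counted here among leukocyte markers, had 42 against 131 counts and was 2.42-fold lower (1.70 to 3.51). mir-31, the 1 member of the biliary and epithelial list, had 127.5 against 288.5 counts and a log2 ratio of -0.81, and was not called. mir-200c, on that list but below the minimum, had 41.3 against 43.2 counts, a ratio of 1.23 (0.78 to 1.93). The mature products of these called hairpins had few counts: 0 with acetaminophen plus G-CSF against 6 with acetaminophen for mir-455, 4 against 7 for mir-5121, 4.5 against 3 for mir-671, 1 against 2 for mir-342, and 0 against 4 for mir-362 above.

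**Figure D2:**
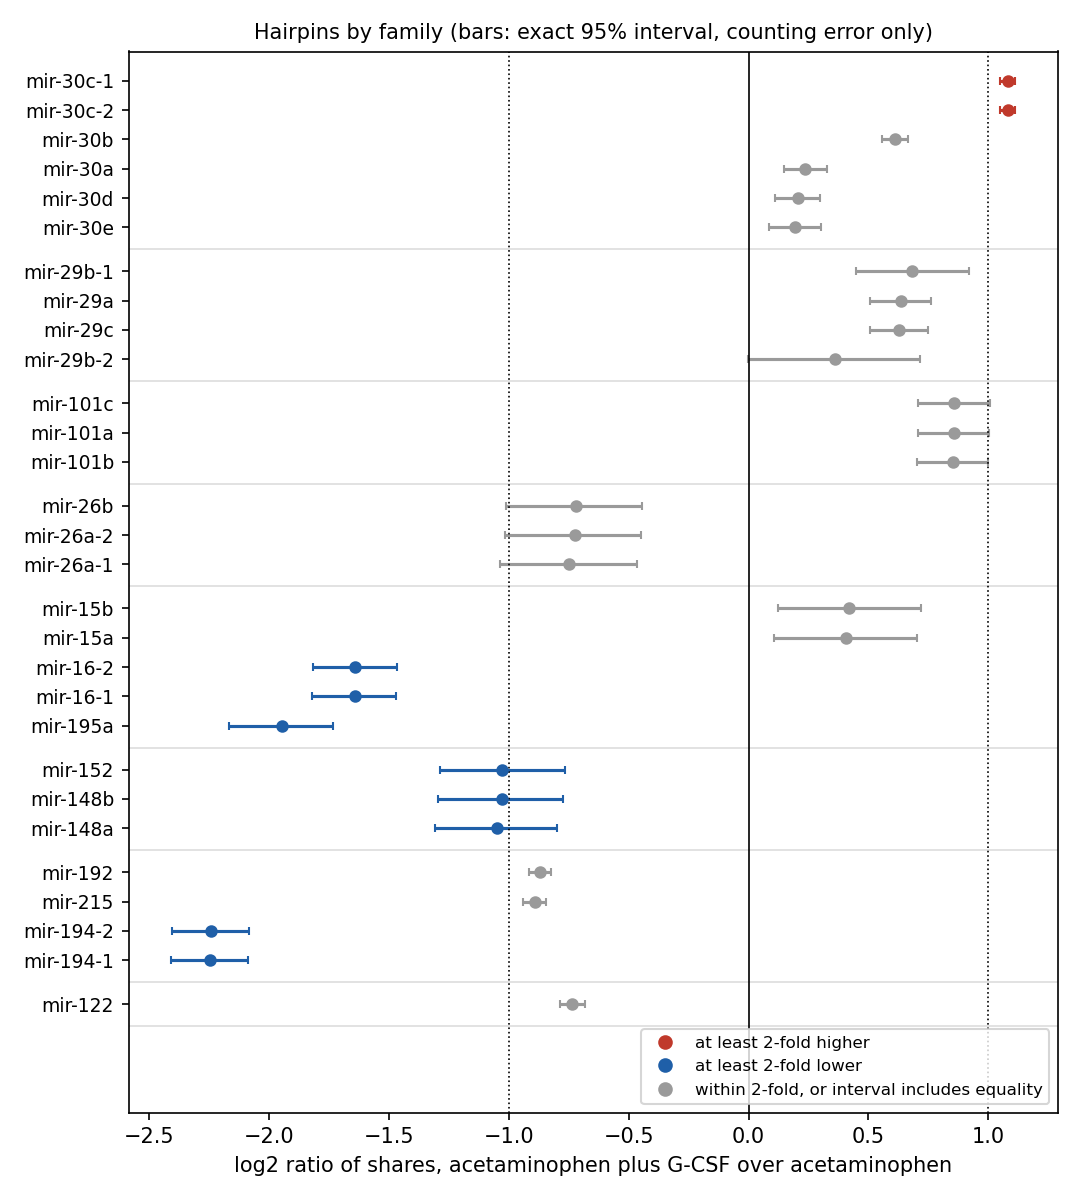
Log2 ratio of share, acetaminophen plus G-CSF over acetaminophen, for the hairpins of 8 groups, 1 row per hairpin, with exact 95% intervals for counting error. All mir-30, mir-29 and mir-101 hairpins lie to the right of 0, all mir-148, mir-152, mir-192, mir-194 and mir-215 hairpins to the left, and mir-15a and mir-15b lie right of 0 while mir-16-1, mir-16-2 and mir-195a lie left of it.

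Other families showed a common direction below the limit. Their members are not separate evidence where mature sequences are similar. All 9 let-7 members, which form 1 group of similar mature sequence, had negative log2 ratios, with 0 called and a median of -0.57. The 7 members of miR-17-92 and its paralogues, in 4 such groups, had positive ones, with 0 called and a median of 0.23. Of these mir-17 was the largest at 0.81. mir-23a, mir-23b, mir-24-1, mir-24-2, mir-27a and mir-27b, in 4 such groups, were all negative (median -0.47), of which the mir-27 hairpins were called. mir-21a, often raised in injured liver, had 1018 counts with acetaminophen plus G-CSF against 1221 with acetaminophen, a log2 ratio of 0.11 (-0.02 to 0.23), and mir-155, which is induced in inflammation, had 901.5 against 1571.5, a log2 ratio of -0.43 (-0.55 to -0.31).

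Hairpins from 1 genomic cluster, which can be cut from a common transcript, did not always have the same ratio. Of the 108 members, 98 had a position in the annotation used. Those without one, among them mir-30b, mir-30d, mir-92a-1 and mir-92a-2, could not be placed in a cluster, so that the totals may be too low. The placed members include 30 hairpins in 13 clusters of neighbours within 10000 bases of each other (GRCm38), or 21 pairs of neighbours. In 12 pairs the 95% intervals of the log2 ratios did not overlap, and in 4 the ratios differed by more than 1 log2 unit. The 4 were mir-194-1 against mir-215, at -2.25 and -0.89, mir-194-2 against mir-192, at -2.24 and -0.87, mir-16-1 against mir-15a, at -1.64 and 0.41, and mir-16-2 against mir-15b, at -1.64 and 0.42. As both copies of mir-194 and of mir-16 hold the same mature strand, these 4 pairs stand for 2 signals. The 12 pairs repeat other copies as well, such as mir-27a with mir-24-2 and mir-27b with mir-24-1, and are fewer signals than pairs. mir-30c-1 and mir-30e, 2984 bases apart in introns of Nfyc, had log2 ratios of 1.08 and 0.20, while mir-29a and mir-29b-1 overlapped at 0.63 and 0.68. Reads of mir-30c-1 cannot be told apart from those of mir-30c-2, which lies elsewhere, so that the ratio of 1.08 cannot be assigned to the Nfyc locus.

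**Figure D3:**
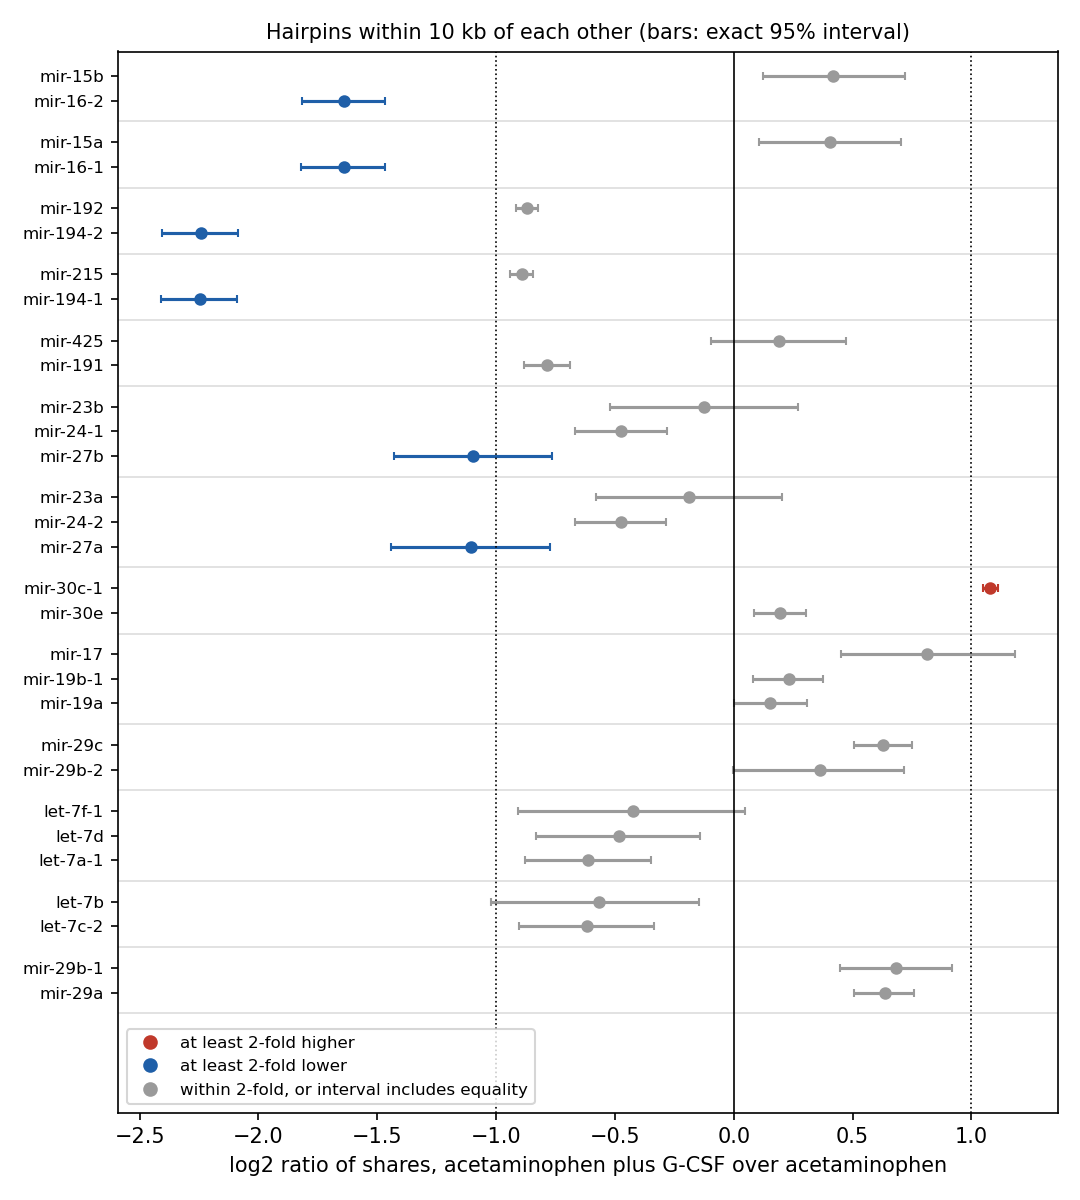
Log2 ratio of share, acetaminophen plus G-CSF over acetaminophen, for the 30 hairpins in 13 genomic clusters, with exact 95% intervals for counting error and grey lines between clusters. The clusters of mir-15b with mir-16-2 and of mir-15a with mir-16-1 hold hairpins on opposite sides of 0, and let-7 and mir-29 neighbours have overlapping intervals.

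The mature table gave the same sign as the hairpins for most of the miRNAs it could measure. Of 47 mature miRNAs with 10 or more counts in either column, 5 (10.6%) were higher and 8 (17%) lower, 27.7% in either direction. The called strands are not all separate signals. Sequences are similar among miR-29a-3p, miR-29b-3p and miR-29c-3p, among miR-148a-3p, miR-148b-3p and miR-152-3p, and between miR-16-5p and miR-195a-5p. The log2 ratios of the 47 and of their summed hairpins had a Pearson correlation of 0.87 across miRNAs, which share libraries and reads and are not replicates. The sign was the same for 40 of 47, among them all 13 called, and opposite for the other 7, such as miR-6240 (log2 ratio 0.42 in mature counts, -0.58 in hairpin counts) and miR-19a-3p (-0.21 and 0.15). For 44 the hairpin ratio lay inside the interval of the mature ratio. The exceptions were miR-489-3p, miR-126a-3p and miR-126a-5p. The last are opposite strands of 1 hairpin: the 3p strand had 25 counts with acetaminophen plus G-CSF against 69 with acetaminophen (log2 ratio -1.20), the 5p strand 30 against 25 (0.52), and the hairpin a log2 ratio of -0.51. miR-29a-3p, with 62.8 counts with acetaminophen plus G-CSF against 35 with acetaminophen, passed the limit in the mature table at 2.15-fold (1.40 to 3.36) and not in the hairpin table, as did miR-101a-3p, miR-29c-3p and miR-29b-3p.

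**Figure D4:**
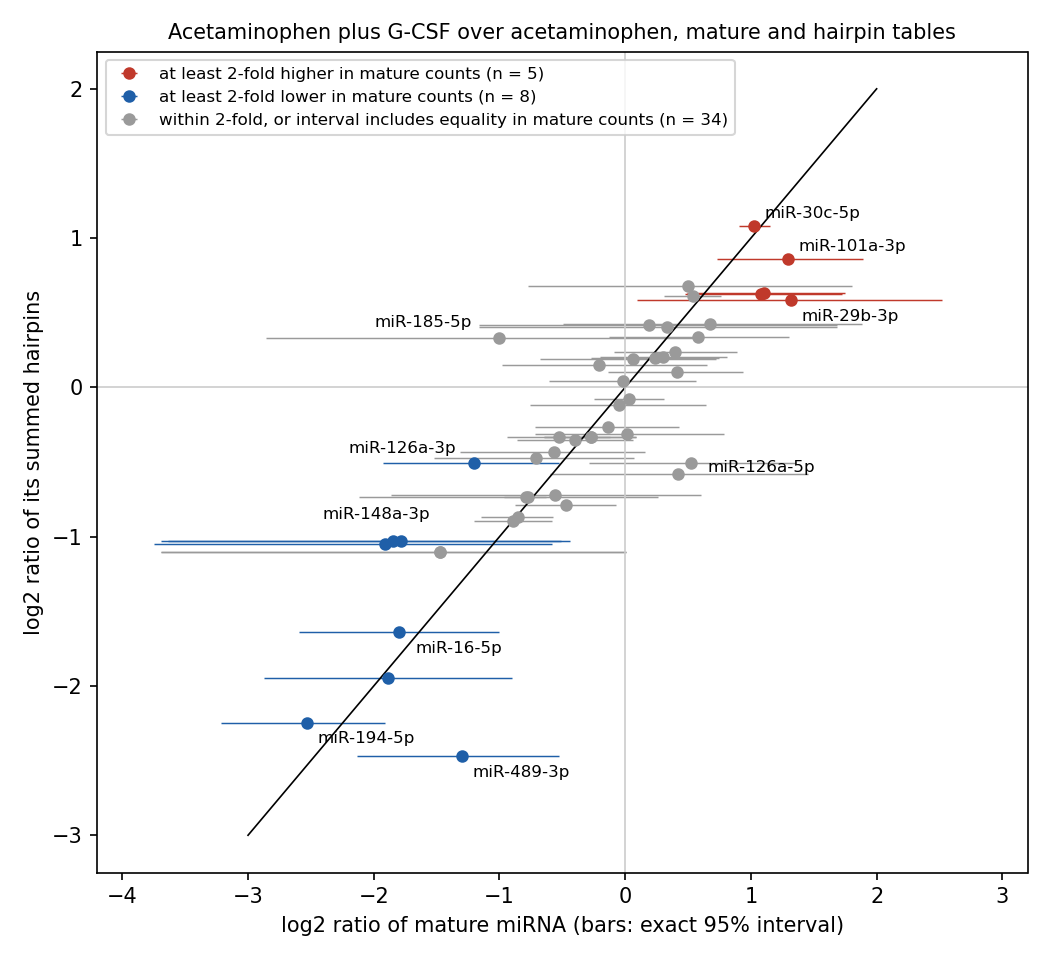
Log2 ratio of the summed hairpins (vertical) against that of the mature strand (horizontal, bars give the exact 95% interval) for 47 miRNAs, acetaminophen plus G-CSF over acetaminophen, with the line of equality. Points in red (5) and blue (8) passed the limit in mature counts, and miR-489-3p lies farthest below the line among them.

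A part of the members had no read in the mature table. In 16 of the 108, no mature product had a count in either column, and for 13 of these no other member of similar mature sequence was found to take the reads (mir-615, mir-878, mir-1224, mir-1895, mir-1948, mir-3066, mir-3960, mir-5112, mir-6236, mir-6239, mir-6481, mir-6538 and mir-6949). For mir-1948, mir-3960 and mir-5112 the reference used held no mature sequence, so that similarity could not be checked. These 13 took 12.8% of hairpin counts with acetaminophen plus G-CSF, 15.1% with acetaminophen and 0.727% in untreated cells. Among them mir-6481 had 5905 counts with acetaminophen plus G-CSF against 10681 with acetaminophen (log2 ratio -0.49), mir-1948 had 3611 against 7124 (-0.61), and mir-6239 had 3406 against 2726 (0.69). Only mir-878 of the 13 was called, so that the mature table gives no check on that call. mir-2137, the largest hairpin outside miR-30c, had 9625 against 13078 counts, with a log2 ratio of -0.08 (-0.11 to -0.04), and its mature counts were 202 and 237.

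The untreated column lay above, between or below the treated columns, depending on the hairpin. Its values are given side by side only, since the comparison of acetaminophen with untreated cells shares the acetaminophen column. The share of mir-30c-1 was 14.7% with acetaminophen plus G-CSF, 6.97% with acetaminophen and 0.954% in untreated cells. mir-489 stood at 0.0488%, 0.271% and 0.00733%, and mir-362 at 0.0165%, 0.0929% and 0.0221%, both highest in the acetaminophen column. mir-194-1 stood at 0.266%, 1.26% and 0.885%, mir-16-1 at 0.238%, 0.744% and 0.956%, and mir-195a at 0.152%, 0.587% and 0.834%, each lowest with G-CSF added. mir-125a (0.0736%, 0.0256% and 0.127%) was lowest in the acetaminophen column, as was mir-101a (0.642%, 0.354% and 1.01%), which was not called.

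**Figure D5:**
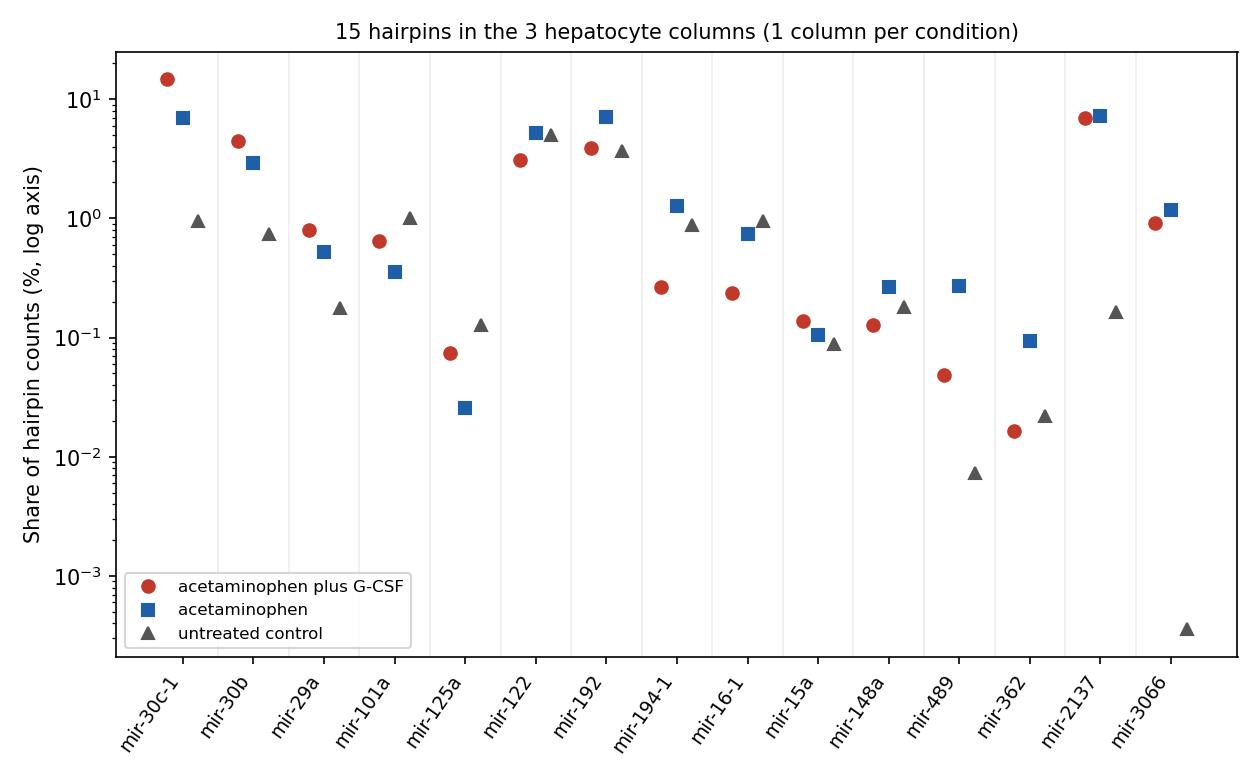
Share of hairpin counts (percent, log axis) of 15 hairpins in the acetaminophen plus G-CSF, acetaminophen and untreated hepatocyte columns, 1 point per column. mir-30c-1 stands at 14.7% with acetaminophen plus G-CSF, 6.97% with acetaminophen and 0.954% in untreated cells, and mir-489 and mir-362 are highest in the acetaminophen column.

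The same treatments in mouse liver, in columns that share none with the hepatocytes, gave other values for these hairpins. All 108 members had 10 or more counts in liver, where 24 were higher and 19 lower with G-CSF added to acetaminophen. Of all 379 liver hairpins measured, 65 (17.2%) were higher and 57 (15%) lower, 32.2% in either direction. Across the 108 members the log2 ratios in hepatocytes and in liver had a Pearson correlation of -0.11 and a Spearman correlation of -0.15, as a description, and 46 had the same sign. The acetaminophen liver column stood apart, with 5.65 hairpin counts per mature count against 25.1 in the acetaminophen plus G-CSF liver column, and 31.3 and 33.7 in the hepatocyte columns with and without G-CSF. Of the 17 hairpins lower in hepatocytes, 1 (mir-5121) was lower in liver, 2 (mir-342 and mir-671) were higher and 14 were not called.

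Summed mir-30c hairpins, higher in hepatocytes, took 2.95% of liver hairpin counts with acetaminophen plus G-CSF against 7.10% with acetaminophen, 2.41-fold lower. The mature strand went the other way in liver: miR-30c-5p had 1024 counts (2.34%) with acetaminophen plus G-CSF against 302 (1.53%) with acetaminophen, a ratio of 1.53 (1.34 to 1.74). The direction of miR-30c in liver thus depends on the table used, while in hepatocytes both tables gave a higher share. mir-194-1 had a liver log2 ratio of -0.28 and mir-16-1 of -0.23, against -2.25 and -1.64 in hepatocytes.

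The share of a column depends on what else the column holds, and miR-30c alone moved the scale. With the mir-30c hairpins left out of the total, every other log2 ratio was 0.29 higher, and the calls became 13 higher and 10 lower (56.5% higher, against 15% on column totals). DESeq2 size factors moved values by 0.23 and gave 9 higher and 11 lower (45% higher). TMM factors moved them by 0.14 and gave 3 higher and 11 lower. The 3 higher calls and 10 of the lower ones (mir-16-1, mir-16-2, mir-194-1, mir-194-2, mir-195a, mir-362, mir-455, mir-489, mir-878 and mir-5121) held under each of these scalings. The calls of mir-27a, mir-27b, mir-148a, mir-148b, mir-152 and mir-671 were lost under all 3, and that of mir-342 without mir-30c. mir-101a, mir-101b, mir-101c, mir-17, mir-3535 and mir-5112 became higher with DESeq2 size factors and without mir-30c. The sign turned under at least 1 scaling for 10 members, among them mir-2137, mir-23a, mir-23b, let-7g and let-7i, so that the common negative direction of let-7 and of the mir-23, mir-24 and mir-27 hairpins holds on column totals only. Hairpins of the mir-29, mir-30, mir-101, mir-15a and mir-15b groups kept positive log2 ratios, and those of mir-122, mir-192 and mir-215 negative ones, under the 4 scalings.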

How the data were processed

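The values are estimated counts (expected counts, fractional where reads matched several miRNAs), deposited by the authors in a hairpin and a mature table of 12 columns each, not scaled to depth, per the file headers. Each column combines the PGM and Proton libraries of a condition, per the file headers. RNA isolation used a Norgen kit and libraries used Ion Total RNA-Seq Kit v2 reagents, per the labels' protocols. No aligner, genome build or rule for dividing reads was given in the sources used here. Shares of column totals were compared as ratios with exact conditional (Clopper-Pearson) 95% intervals on rounded counts (scipy 1.17.1, Python 3.11.15). The intervals cover counting error only, since no replicate exists. Because reads copied by PCR are not independent molecules, they may be too narrow even for that error. A call needed 2-fold and an interval without equality. Scaling alternatives used edgeR 4.0.16 (TMM) and DESeq2 1.42.0 size factors in R 4.3.3. Similar mature sequences were those with at most 2 mismatches over 18 bases, shifted by at most 1. Hairpins were placed and matched to genes with GENCODE and RefSeq annotation of GRCm38. Sequences came from RefSeq. The members and lists were chosen with earlier results of these data known. Named hairpins were mir-122, the 10 with the highest mean share, up to 12 called per direction by size of ratio, members of 7 family lists and 5 marker lists, and those next to the 100-count minimum. Other hairpins in the text were chosen after their values were seen.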

Additional observations from a re-analysis of the deposited data

Results flagged for a closer look

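In all, 4 hairpins passed the 2-fold limit in opposite directions in hepatocytes and in liver when acetaminophen plus G-CSF was set against acetaminophen. The difference between the materials was not tested, because each condition has 1 column. The log2 ratio in hepatocytes minus that in liver was 2.36 for mir-30c-1 and 2.34 for mir-30c-2, which are 1 signal. It was -2.17 for mir-671, with 66.5 counts with acetaminophen plus G-CSF against 179 with acetaminophen in hepatocytes and 446 against 21 in liver. It was -2.54 for mir-342, with 42 against 131 counts in hepatocytes and 6646 against 281 in liver. Among the mature strands in liver, miR-30c-5p was 1.53 times as large with G-CSF added, against the direction of its hairpins, while miR-342-3p had 158 counts with acetaminophen plus G-CSF against 35 with acetaminophen, a ratio of 2.03 (1.40 to 3.02), in the direction of its hairpin. miR-671-5p had 5.5 counts with acetaminophen plus G-CSF and 0 with acetaminophen in liver.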

How the results depend on the processing

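The number of hairpins called at least 2-fold (3 higher and 17 lower) moved with most settings. It was 3 higher and 11 lower with TMM factors, 9 and 11 with DESeq2 size factors, and 13 and 10 without the mir-30c hairpins in the total. A minimum of 10 counts gave 15 higher and 39 lower, a minimum of 1000 gave 2 and 5, and no minimum gave 17 and 41. A limit of 1.5-fold gave 20 higher and 36 lower, and a limit of 3-fold 0 and 9. The mature table gave 5 higher and 8 lower. Counting hairpins of the same mature sequence once gave 2 and 15, and counting those of similar mature sequence once, an alternative chosen after seeing the data, gave 2 and 11. In the mature table the scalings gave 5 higher and 6 to 8 lower, and in liver 64 to 65 higher and 57 to 59 lower. No paired analysis was possible because each condition has 1 combined column, and for the same reason no replicate could be left out. In the acetaminophen plus G-CSF column, a count of 0 allows a share of up to 0.00215% in the hairpin table and 0.0674% in the mature table.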

Other observations

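Below the minimum of 100 counts, 122 hairpins had 10 or more counts in either column, of which 12 (9.84%) were higher and 22 (18%) lower with G-CSF added to acetaminophen, against 6.52% and 17% of all 230 measured. Those named here were chosen after their values were seen. Higher ones included mir-483, from an intron of the growth factor gene Igf2, with 36 counts with acetaminophen plus G-CSF against 5 with acetaminophen (9.29-fold, 3.63 to 30.3). mir-322, which belongs to the extended family of miR-16, had 74 against 30 counts and was 3.18-fold higher (2.06 to 5.04), unlike mir-16-1 and mir-195a. mir-10b (67.9 against 29.8 counts), mir-10a (74.0 against 41.6) and mir-125b-1 (58.8 against 29) were 2.94-, 2.30- and 2.62-fold higher, and mir-20a (76.0 against 45.8), of the miR-17-92 cluster, was 2.14-fold higher. Lower ones included mir-222, with 22 counts with acetaminophen plus G-CSF against 97 with acetaminophen, a log2 ratio of -1.77. The smooth muscle mir-145a and mir-145b, which share their reads, had 20.8 and 19.9 counts with acetaminophen plus G-CSF against 86.7 and 83.5 with acetaminophen (log2 ratios of -1.70 and -1.70). mir-501, which lies near mir-362 on chromosome X, had 1 count against 17.

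Exosomes from the medium of the same kind of culture held 173 hairpin counts with acetaminophen plus G-CSF and 167 with acetaminophen. mir-2137 had 14 and 44 of them, and 19 and 21 of the 108 members had any count, too few to compare the members one by one.

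Among 73 mature strands of members with a RefSeq sequence, the GC content had a Spearman correlation of -0.04 with the log2 ratio of the hairpin and the mean share 0.12, as descriptions across miRNAs that share libraries.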
